A study of Mus musculus with 6 samples.

Results

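The genes described here are 10 heat-shock genes among the 55401 genes of a count table from mouse glomeruli, the filtering units of the kidney. They were chosen by name, with earlier results of these data known. They are Hspa1a, Hspa1b, Hspa8, Hsph1, Hspb1, Dnajb1, Hsp90aa1, Bag3, Hsf1 and Hspd1. All 10 passed the filter on low counts, as did 19717 of the genes in all. RNA was sequenced from 3 Control and 3 DKD libraries, where the series title spells out DKD as diabetic kidney disease. The labels give Control or DKD as the genotype and glomeruli as the tissue. The sources used here do not give strain, age or how the disease arose. The series asks how histone methyltransferases are transcribed in diabetic glomeruli. Whether the 3 libraries of a group are 3 animals is not stated, and the p-values cover only the spread among libraries, which may be technical.

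Heat-shock proteins are chaperones that hold, refold or pass on damaged proteins. Hsp70 binds exposed stretches of unfolded protein, J-domain proteins deliver those clients and speed ATP hydrolysis, nucleotide exchange factors release them, and Hsp90 takes over clients such as kinases and steroid receptors. The transcription factor Hsf1 is held inactive by chaperones and, when unfolded protein draws them away, binds heat-shock elements in DNA and raises transcription of the inducible members within minutes, so that warming, ischaemia or handling of a tissue can raise them. In the kidney, Hspb1 and its relatives bind actin, and Hsp70 is known to rise after ischaemia. Although the set carries a cytosolic name, Hspd1 encodes the chaperonin Hsp60 of the mitochondrial matrix, and it is described apart from the others.

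Heat-shock elements are runs of the letters GAA in alternating orientation. The promoters of the members are shown as a description of sequence, and a link between them and the levels given below was not tested. RefSeq promoter windows on GRCm38.p6, with 250 bases before and 50 after the start site, were found for 7 of the 10 members. Hspa8, Hsp90aa1 and Hsf1 had none. In the stretches below, written 5′ to 3′ on the gene's strand, capitals mark a pair of facing units, GAANNTTC or TTCNNGAA, which are their own reverse complements and so read alike on both strands. Overlapping pairs run together.
Hspa1a, chr17:34972157-34972306, minus strand: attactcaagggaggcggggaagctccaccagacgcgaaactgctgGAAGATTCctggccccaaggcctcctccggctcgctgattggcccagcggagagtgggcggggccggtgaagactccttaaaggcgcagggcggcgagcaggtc
Hspa1b, chr17:34959239-34959388, minus strand: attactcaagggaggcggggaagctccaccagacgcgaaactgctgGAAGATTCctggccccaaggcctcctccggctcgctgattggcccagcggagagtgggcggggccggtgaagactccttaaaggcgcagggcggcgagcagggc
Hspb1, chr5:135887782-135887849, plus strand: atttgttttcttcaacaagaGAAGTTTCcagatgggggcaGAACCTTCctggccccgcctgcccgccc
Hsph1, chr5:149636342-149636389, minus strand: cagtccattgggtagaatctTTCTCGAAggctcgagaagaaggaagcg
Hsph1, chr5:149636282-149636306, minus strand, after the start site: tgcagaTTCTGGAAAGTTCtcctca
Hspd1, chr1:55088039-55088096, minus strand: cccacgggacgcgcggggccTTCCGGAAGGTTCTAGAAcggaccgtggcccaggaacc

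The windows of Hspa1a and Hspa1b, neighbouring genes on chromosome 17, differed at 4 of 300 positions, of which 1 lies in the stretches printed above. Each held 1 pair of units, which began 104 bases before the start site. Hspb1 held 2 separate pairs. Hspd1 held a run of 4 units that began 144 bases before its start site, and Hsph1 held a run of 3 units after its start site in addition to a pair before it. Bag3 held 1 pair, after its start site, and Dnajb1 had no match to these letters in its windows. Hspd1, Hsph1 and Dnajb1 each had 2 windows, for 2 start sites, and the other window of Hspd1 held no pair. In all, 7 of the 10 windows of the 7 members held at least 1 pair, against 15.1% of all 32851 promoter windows. Those windows include both overlapping windows of Hsph1 and the nearly identical ones of Hspa1a and Hspa1b, so they are not all separate cases. A run of 3 units, in which NNGAA or NNTTC continues a pair with the next facing unit, was found in 3 of the 10 windows (both of Hsph1, which overlap and hold the same run, and 1 of Hspd1), against 0.603% of all windows, and a run of 4 in 1 of the 10, that of Hspd1, against 0.0244%. A match of letters is a description of the sequence and not evidence of binding.

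In these 6 libraries no heat-shock member passed the test of DKD against Control, which at n = 3 per group does not show that levels were alike. edgeR called 0 of 10 at an adjusted p under 0.05, where it called 1.16% of all genes tested, and 0 of 10 had an unadjusted p under 0.05, against 22.6% of all genes. That unadjusted count was 5 without Control replicate 1, 2 without Control replicate 2 and 2 without Control replicate 3. limma-voom also called 0 of 10, against 1.03% of genes, and DESeq2 called 0 of the 9 to which it gave an adjusted p (all but Hspa1a), against 14% of genes. The member log2 fold changes (DKD over Control) ran from −1.46 to 0.53 with a median of −0.21, against 0.0029 over all genes tested, and 7 of 10 were below 0. Without Control replicate 2 the median was 0.12 and 7 of 10 were above 0. Without Control replicate 1 the median was −0.48, and without Control replicate 3 it was −0.090 with 5 of 10 on each side. The groups did not overlap for 2 of 10, Hsf1 (higher in DKD) and Hspd1 (lower in DKD), where 30.7% of all genes did not overlap, made up of 15.5% with DKD higher and 15.2% with DKD lower. The differences that stood out lay between Control libraries. Levels are given in CPM, the usual count per library size, here with sizes adjusted by TMM factors, with n = 3 per group.

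**Figure D1:**
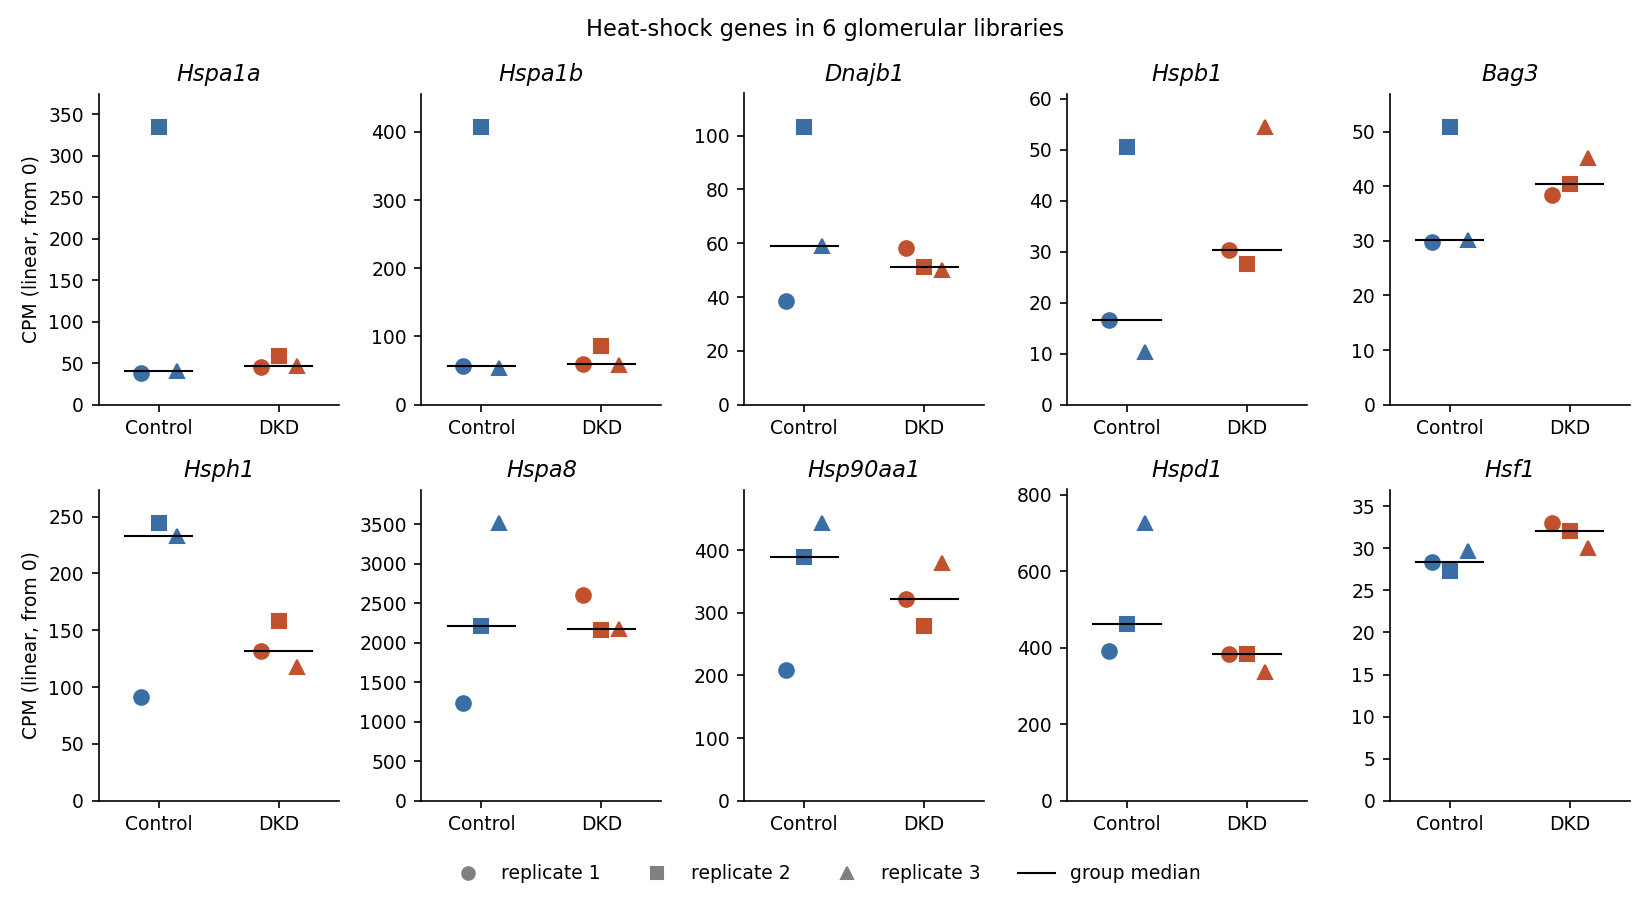
Level of each heat-shock gene (CPM, linear axis from 0) in the 3 Control and 3 DKD libraries, with the replicate number as the symbol and the group median as a line. Control replicate 2 stands far above the other 5 libraries for Hspa1a and Hspa1b (335 and 407 CPM), while Control replicate 3 is highest for Hspa8, Hsp90aa1 and Hspd1.

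Hspa1a and Hspa1b encode the strictly inducible cytosolic Hsp70, which most unstressed cells hold at low levels. Hspa1a (ENSMUSG00000091971, chromosome 17) was measured at 38.7, 335 and 41.0 CPM in Control replicates 1 to 3 and at 46.0, 58.2 and 46.3 CPM in DKD replicates 1 to 3. Hspa1b (ENSMUSG00000090877, chromosome 17) was measured at 56.1, 407 and 54.1 CPM in Control and at 59.0, 86.1 and 58.9 CPM in DKD, in the same order. Control replicate 2 was thus the highest of the 6 libraries for both genes, and the DKD libraries lay between the other Control libraries and that one. Relative to the mean of Control replicates 1 and 3, Control replicate 2 was 8.41-fold higher for Hspa1a and 7.39-fold higher for Hspa1b, ranks 6 and 8 among the 11640 genes with a mean of at least 5 CPM.

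The fold changes of this pair followed from that library. Hspa1a had a log2 fold change of −1.46 ± 0.81 (SE) with an edgeR adjusted p of 0.331, and Hspa1b had −1.34 ± 0.77 with an edgeR adjusted p of 0.346. Without Control replicate 2 they were 0.33 and 0.30 (edgeR adjusted p 0.351 and 0.506), so the sign turned. The group medians were close, at 41.0 and 46.3 CPM for Hspa1a and 56.1 and 59.0 CPM for Hspa1b, in Control and DKD. The transcripts of the pair share most of their sequence, with 63.8% of the 31-base words of Hspa1a also found in Hspa1b, so how reads were divided between them is uncertain. The count of Hspa1b over that of Hspa1a ran from 1.22 in Control replicate 2 to 1.48 in DKD replicate 2, and with the counts of both summed the log2 fold change was −1.39 (edgeR adjusted p 0.340). Gm20481, on the opposite strand, covers 19.0% of the exonic bases of Hspa1a, and the sources used here do not say whether counting used strand.

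Dnajb1 (Hsp40), the J-domain partner that feeds clients to Hsp70, was measured at 38.4, 103 and 59.1 CPM in Control and 58.3, 51.2 and 49.9 CPM in DKD (ENSMUSG00000005483, chromosome 8). Control replicate 2 was again the highest library, and the groups overlapped. The log2 fold change was −0.33 ± 0.32 with an edgeR adjusted p of 0.588, and 0.12 without Control replicate 2. Hsph1 (Hsp110), a large relative of Hsp70 that acts as its nucleotide exchange factor, was measured at 91.6, 244 and 233 CPM in Control and 132, 158 and 117 CPM in DKD (ENSMUSG00000029657, chromosome 5). Here Control replicates 2 and 3 were both above every DKD library and Control replicate 1 was below every one. The log2 fold change of Hsph1 was −0.48 ± 0.35 (edgeR adjusted p 0.459), and it ran from −0.81 without Control replicate 1 to −0.26 without Control replicate 2.

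Hspb1 (Hsp25 in the mouse), a small heat-shock protein that holds unfolded clients and binds actin filaments, was measured at 16.6, 50.6 and 10.4 CPM in Control and 30.2, 27.6 and 54.4 CPM in DKD (ENSMUSG00000004951, chromosome 5). Control replicate 2 and DKD replicate 3 were the 2 high libraries, and Control replicate 3 was the lowest. The log2 fold change was 0.53 ± 0.57 with an edgeR adjusted p of 0.624. It was 1.47 without Control replicate 2 (edgeR adjusted p 0.182) and 0.15 without Control replicate 3. Bag3, a co-chaperone that links Hsp70 to small heat-shock proteins and to autophagy, was measured at 29.8, 50.9 and 30.1 CPM in Control and 38.5, 40.4 and 45.1 CPM in DKD (ENSMUSG00000030847, chromosome 7). Every DKD library lay above Control replicates 1 and 3 and below Control replicate 2. Its log2 fold change was 0.16 ± 0.22 (edgeR adjusted p 0.704), or 0.46 without Control replicate 2 (edgeR adjusted p 0.212).

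**Figure D2:**
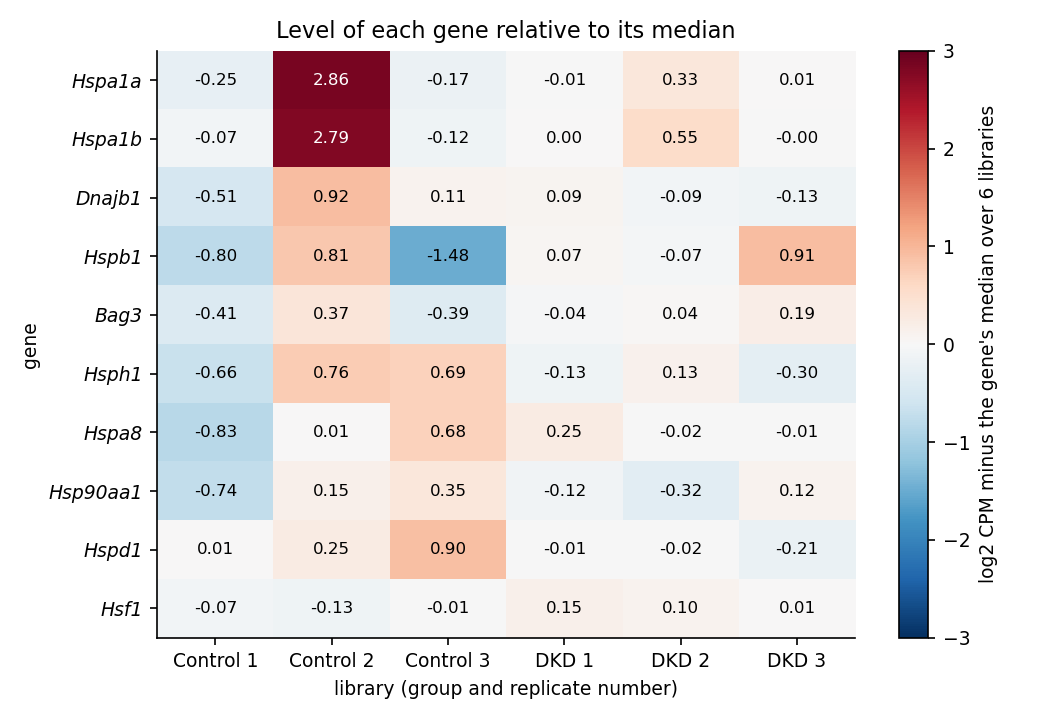
Log2 CPM of each heat-shock gene minus its median over the 6 libraries, by library, with the value printed in each cell. The Control replicate 2 column is red for Hspa1a and Hspa1b (2.86 and 2.79), Control replicate 1 is low for Hspa8 and Hsp90aa1 (−0.83 and −0.74), and Hsf1 stays between −0.13 and 0.15.

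Hspa8 and Hsp90aa1 followed another order. Hspa8 (Hsc70), the constitutive cytosolic Hsp70, was measured at 1234, 2208 and 3517 CPM in Control and 2603, 2162 and 2177 CPM in DKD (ENSMUSG00000015656, chromosome 9). Hsp90aa1, the inducible form of cytosolic Hsp90, was measured at 209, 389 and 444 CPM in Control and 322, 279 and 379 CPM in DKD (ENSMUSG00000021270, chromosome 12). For both genes Control replicate 1 was the lowest library, Control replicate 3 the highest, and all DKD libraries lay between them. The log2 fold changes were −0.0033 ± 0.36 for Hspa8 (edgeR adjusted p 0.997) and −0.088 ± 0.28 for Hsp90aa1 (edgeR adjusted p 0.885). That of Hspa8 ran from −0.31 without Control replicate 1 to 0.43 without Control replicate 3, and that of Hsp90aa1 from −0.35 to 0.13 without the same libraries.

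Hspd1, the mitochondrial Hsp60, was measured at 392, 462 and 727 CPM in Control and 384, 384 and 336 CPM in DKD (ENSMUSG00000025980, chromosome 1). No DKD library reached the level of any Control library, but the gap between DKD replicate 1 and Control replicate 1 was small next to the spread within Control. The log2 fold change was −0.52 ± 0.24, with an edgeR adjusted p of 0.254, the smallest of the 10, and −0.21 without Control replicate 3. Hspe1, its co-chaperonin, which starts next to Hspd1 on the other strand, averaged 74.7 ± 19.3 CPM (SD) over the Control libraries and 72.7 ± 13.1 CPM over the DKD libraries, with a log2 fold change of −0.038 ± 0.22.

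Hsf1, the transcription factor above these genes, had the narrowest spread of the set. It was measured at 28.4, 27.3 and 29.7 CPM in Control and 33.0, 32.1 and 30.0 CPM in DKD (ENSMUSG00000022556, chromosome 15). All 3 DKD libraries lay above all 3 Control libraries, by a log2 fold change of 0.16 ± 0.10 with an edgeR adjusted p of 0.403. With library totals as the only scaling, which moved the median of all genes by −0.13, the value for Hsf1 was 0.027. In the Control library where Hspa1a and Hspa1b were highest, Hsf1 was at its lowest, 27.3 CPM. Hsf1 is known to be switched on through its protein, so its transcript level does not report its activity.

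Control libraries spread further apart than DKD libraries for most members. The highest Control library was 8.65 times the lowest for Hspa1a, 7.53 times for Hspa1b, 4.88 times for Hspb1 and 2.85 times for Hspa8, the 4 widest ratios of the set. Within DKD the same ratios were 1.26, 1.46, 1.97 and 1.20. Among the 11640 genes with a mean of at least 5 CPM the median ratio was 1.26 in Control and 1.26 in DKD. The Control ratio of Hspa1a was at the 99.5th percentile of those genes and that of its DKD libraries at the 51.6th. For Hspa1b, Hspb1 and Hspa8 the Control ratios were at the 99th, 99th and 97th percentiles. Their DKD ratios were at the 77th, 93rd and 39th, so Hspb1 was wide in both groups. Of the 10 members, 9 had a wider ratio in Control than in DKD, the exception being Hsf1 (1.09 and 1.10). The difference in spread between the groups was not tested. Other lists described below were also wider in Control, by median ratios in Control and DKD. These were 1.76 and 1.23 for Hsp90 and its co-chaperones, 1.69 and 1.17 for J-domain co-chaperones, and 1.54 and 1.15 for organelle chaperones. Immediate-early genes had 3.76 and 1.73, TRiC subunits 1.29 and 1.14, and Hsp70 relatives 1.31 and 1.29. Small heat-shock proteins (1.58 and 1.63), partners of Hsp70 (1.16 and 1.20) and heat-shock factors (1.31 and 1.64) were wider in DKD. The value for heat-shock factors rests on 4 genes, of which Hsf5 was near the floor, with counts of 12, 0 and 4 in DKD. Control replicate 2 was the highest of the 6 libraries for 5 members, Control replicate 3 for 3, and Control replicate 1 was the lowest for 6.

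**Figure D3:**
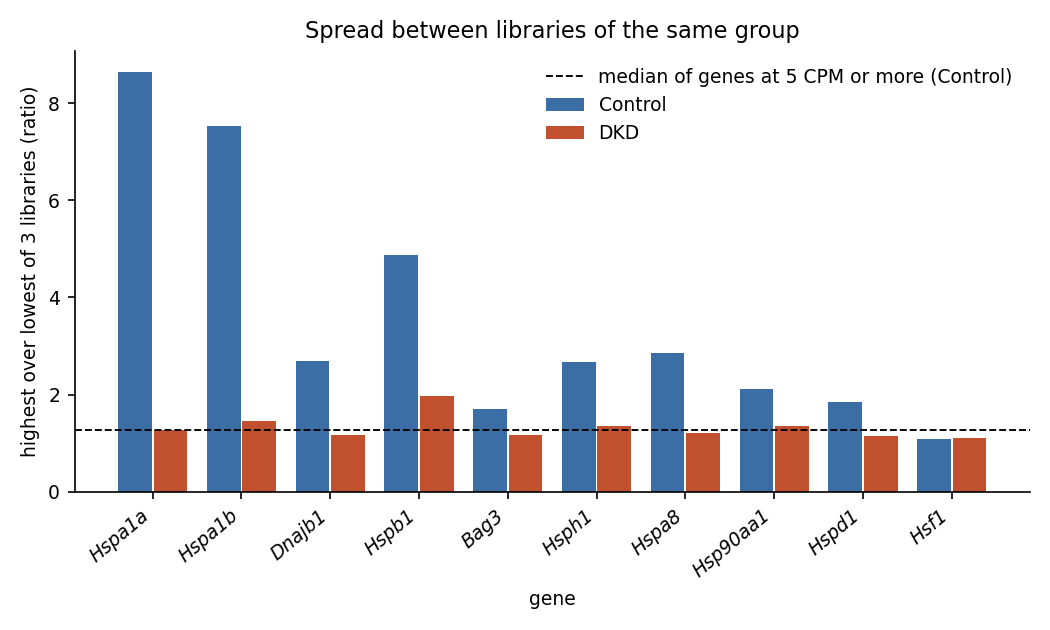
Highest over lowest CPM among the 3 libraries of each group for each heat-shock gene, as bars from 0, with the median Control ratio of genes at 5 CPM or more as a dashed line. The Control bars of Hspa1a and Hspa1b reach 8.65 and 7.53, and every DKD bar is at or below 1.97.

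Other features of these libraries are given beside those levels. Control replicate 3, where Hspa8, Hsp90aa1 and Hspd1 were highest, had summed proximal tubule markers (10 of 10 measured) of 42891 CPM. The sum was 19098 and 21176 CPM in the other Control libraries and 9953 to 19563 CPM in DKD. In Control replicate 3 Kap alone held 21114 CPM of that sum. Aqp1 (952 CPM) was not highest in that library, and the other tubule markers were. The summed leukocyte markers (8 of 8) of Control replicate 3 were the lowest of all, 206 CPM against 328 to 711 CPM. The summed podocyte markers (10 of 10) ran from 707 to 932 CPM in Control and from 580 to 644 CPM in DKD, and those of glomerular endothelium (8 of 8) from 360 to 516 and from 220 to 366 CPM. No defining marker of these lists was at 0 in any library. In Control replicate 2, where Hspa1a and Hspa1b were highest, the summed tubule, podocyte and endothelial markers lay between those of the other Control libraries, and the leukocyte sum, 670 CPM, was the highest of Control and below the 711 CPM of DKD replicate 2. The part of cell content in the heat-shock levels was not tested, and in bulk RNA fewer cells of a type and less RNA per cell cannot be told apart. Mitochondrially encoded genes held 10.6% to 12.2% of the Control counts and 15.3% to 18.7% of the DKD counts, so this share did not overlap between the groups. Library totals ran from 71154026 to 83576494 counts.

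Immediate-early genes, transcription factors and phosphatases that cells switch on within minutes of a stimulus, were listed beside the heat-shock genes. Of 8 listed, 0 passed the edgeR test, which called 1.16% of all genes. The log2 fold change was above 0 for 7 of the 8, with a median of 0.48, against 50.2% of all genes. Egr1 was the 1 below 0 (−0.75 ± 0.56). Their summed level was 148, 218 and 106 CPM in Control and 197, 242 and 247 CPM in DKD, so Control replicate 2 was the highest Control library here too but lay within the DKD range. Egr1 was measured at 15.2, 25.4 and 4.28 CPM in Control and 6.50, 10.6 and 9.63 CPM in DKD, and Jun at 41.6, 75.6 and 26.8 CPM against 80.2, 90.3 and 115.5 CPM (Egr1 was named after its values were seen). Jun had a log2 fold change of 0.99 ± 0.36 (edgeR adjusted p 0.164) and Ier2 one of 0.63 ± 0.31 (edgeR adjusted p 0.275). Gene by gene, Control replicate 2 did not match the DKD libraries. Egr1 and Fos (5.16 CPM, against 2.99, 3.96 and 4.25 CPM in DKD) were higher in it than in every DKD library. Jun was lower than in every DKD library, and the other listed genes lay within the DKD range. Hspa1a was between 46.0 and 58.2 CPM in DKD, and a link between immediate-early and heat-shock levels was not tested.

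Set against length, the members differed by over an order of magnitude. Length here joins the exons of all annotated transcripts of a gene. It was 7266 bases for Hsph1 and 7099 for Hsf1, against 3931 for Hsp90aa1, 2967 for Hspa1a and 2803 for Hspa1b. A gene transcribed mainly as a shorter form is placed too low, so the order of the members depends on this choice of length. On the scale of CPM per kilobase of exon, the DKD means ± SD were 538 ± 58.2 for Hspa8, 139 ± 10.4 for Hspd1 and 83.1 ± 12.7 for Hsp90aa1, which did not overlap one another. Next came Hspb1 at 36.3 ± 14.4 and Hspa1b at 24.3 ± 5.60 CPM per kilobase, whose libraries overlapped, as did those of Hspa1b and Hsph1. Hsph1 (18.7 ± 2.86), Hspa1a (16.9 ± 2.34), Dnajb1 (16.6 ± 1.41) and Bag3 (16.1 ± 1.33) could not be told apart by their spread, and Hsf1 was lowest at 4.47 ± 0.217 CPM per kilobase. In Control replicate 2 the pair Hspa1a and Hspa1b reached 113 and 145 CPM per kilobase, above Hsp90aa1 in the same library at 98.9. Several members have copies elsewhere in the genome. Of their 31-base words, 43.5% for Hspa8, 52.3% for Hspb1, 51.4% for Hsp90aa1 and 50.1% for Hspd1 occur in transcripts of other genes, mostly pseudogenes, so their levels are uncertain. The copy that shares most words held 7.60% to 8.79% of the count of Hspa8 (Gm15459) and 1.23% to 2.01% of that of Hspd1 (Hspd1-ps3).

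**Figure D4:**
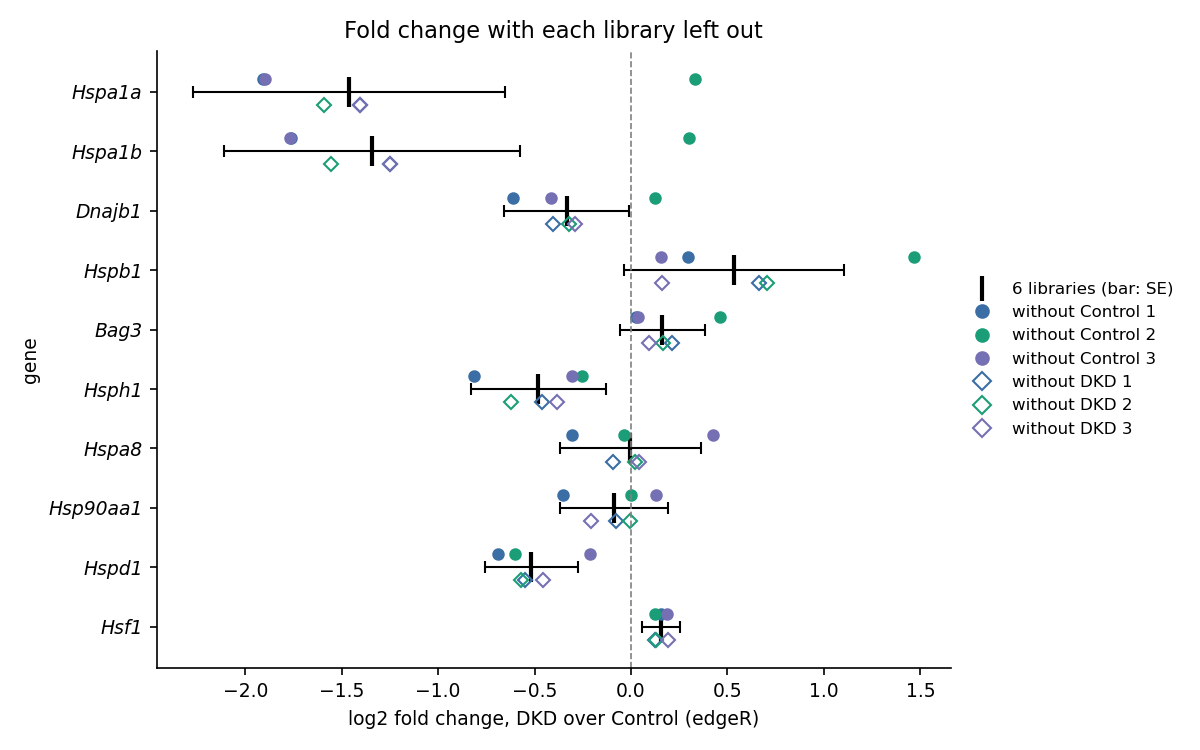
Log2 fold change (DKD over Control, edgeR) of each heat-shock gene with all 6 libraries (black tick, bar for SE) and with each library left out (filled circles for Control, open diamonds for DKD). Leaving out Control replicate 2 moves Hspa1a from −1.46 to 0.33 and Hspb1 from 0.53 to 1.47, while Hsf1 stays between 0.12 and 0.19.

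In the wider chaperone network a pair of small heat-shock proteins passed the test. The lists were chosen with earlier results of these data known, so their shares are a description and not a test. Of 61 other chaperone, co-chaperone and heat-shock factor genes listed, 59 were tested. Of these, 2 rose, a share of 3.39%, and 0 fell, where edgeR called 1.16% of all genes and 0.725% as higher in DKD. Both were small heat-shock proteins, of which 7 of 8 listed were tested. Hspb8, which works with Bag3 to direct damaged protein to autophagy, was measured at 9.46, 9.30 and 5.99 CPM in Control and 25.9, 22.9 and 44.0 CPM in DKD. It rose by a log2 fold change of 1.91 ± 0.30 with an edgeR adjusted p of 0.0396. Hspb6 (Hsp20), a small heat-shock protein of muscle and other contractile cells, was measured at 9.69, 8.66 and 7.62 CPM in Control and 23.1, 20.5 and 38.8 CPM in DKD. It rose by 1.66 ± 0.26 on the log2 scale with an edgeR adjusted p of 0.0396. All 3 DKD libraries exceeded all 3 Control libraries for both genes, in DKD replicate 3 by the widest margin, the library in which Hspb1 was also highest. The mitochondrial share of counts given above separated the groups in the same way, and its part in these rises was not tested.

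These calls were close to the threshold. Hspb8 passed in 8 of 16 alternative analyses and Hspb6 in 7 of 16, always with the same sign, with log2 fold changes from 1.56 to 2.07 and from 1.33 to 1.83. Neither passed when Control replicate 1, Control replicate 2, DKD replicate 1 or DKD replicate 3 was left out. In those runs edgeR called 1, 13, 4 and 10 genes in all, in the same order, so few genes of any kind passed there. Neither passed with limma-voom, and Hspb6 did not pass without Control replicate 3. The summed mesangial and smooth muscle markers (7 of 7) ran from 375 to 504 CPM in Control and from 395 to 465 CPM in DKD. That sum joins genes that moved in unlike ways. Agtr1a was lower in DKD (means 56.1 and 26.8 CPM, edgeR adjusted p 0.036). Ren1 had a higher mean in DKD (88.4 and 150 CPM, edgeR adjusted p 0.295), and its groups overlapped, as did those of the rest. The part of cell content in the rises of Hspb8 and Hspb6 was not tested. The summed leukocyte markers ran from 206 to 670 CPM in Control and from 328 to 711 CPM in DKD. Cryab, the small heat-shock protein alpha-B crystallin, was at 140, 192 and 37.4 CPM in Control and 142, 199 and 128 CPM in DKD, with overlapping groups (named after its values were seen).

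**Figure D5:**
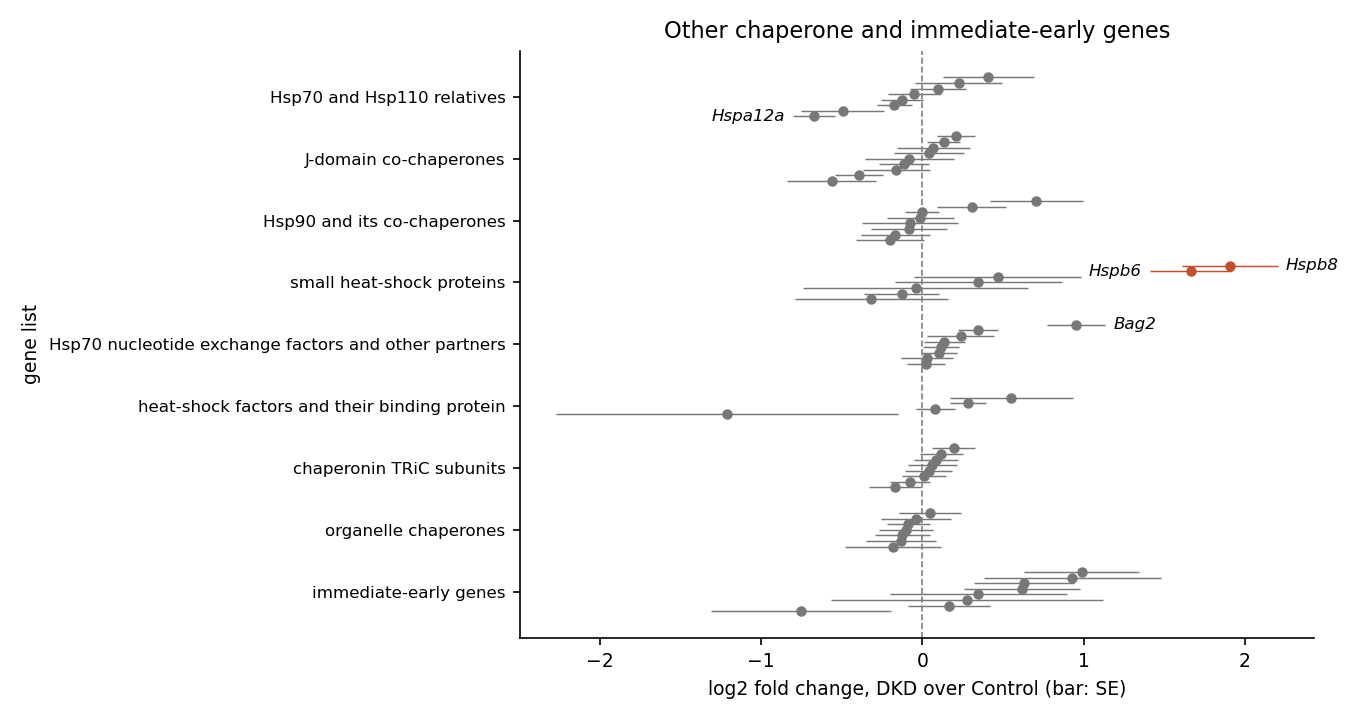
Log2 fold change (DKD over Control, bar for SE) of each tested gene in 8 chaperone lists and the immediate-early list, with genes past the threshold in red. Hspb8 and Hspb6 lie at 1.91 and 1.66, and the TRiC chaperonin and organelle chaperones lie between −0.18 and 0.20.

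In the remaining chaperone lists edgeR called 0 of 52 genes, against 1.16% of all genes, and 6 of 52 (11.5%) had an unadjusted p under 0.05, against 22.6% of all genes. Among partners of Hsp70, 8 of 8 had a log2 fold change above 0, against 50.2% of all genes. Some were close to 0, with a range from 0.023 for Bag6 to 0.95 for Bag2 and a median of 0.13. Library totals as the only scaling moved the median of all genes by −0.13, so the sign of the smaller values depends on scaling. Of the 8, 2 (25%) had an unadjusted p under 0.05, near the share of all genes. Bag2, an exchange factor that inhibits the ubiquitin ligase Stub1, was measured at 14.9, 13.1 and 12.5 CPM in Control and 25.7, 20.4 and 32.2 CPM in DKD. Its log2 fold change was 0.95 ± 0.18, with an edgeR adjusted p of 0.0573. Bag1, another exchange factor, had 0.35 ± 0.12 (edgeR adjusted p 0.156). Among 8 Hsp70 relatives, Hspa12a, a distant member of the family, was measured at 36.4, 29.5 and 32.7 CPM in Control and 18.3, 21.1 and 22.4 CPM in DKD, with −0.67 ± 0.13 and an edgeR adjusted p of 0.0573. Neither Bag2 nor Hspa12a passed the edgeR threshold, though their groups did not overlap, and DESeq2 called both. Hspa1l, a gene of the same cluster as Hspa1a, was at 3.61 ± 0.457 and 2.56 ± 0.521 CPM (mean ± SD).

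Dnaja1, an inducible J-domain protein of the cytosol, was at 180, 319 and 395 CPM in Control and 224, 200 and 182 CPM in DKD, low in Control replicate 1 and high in Control replicates 2 and 3, as Hsph1 was. Its log2 fold change was −0.56 ± 0.27 (edgeR adjusted p 0.274), and that of Dnajc2, a ribosome-bound J-domain protein, was −0.39 ± 0.15 (edgeR adjusted p 0.180). Among Hsp90 and its co-chaperones Fkbp5, an immunophilin that glucocorticoids induce, had 0.71 ± 0.29 (edgeR adjusted p 0.207) and Ptges3, the co-chaperone p23, had 0.31 ± 0.21. Of the heat-shock factors and their binding protein, Hsbp1 had 0.28 ± 0.11 (edgeR adjusted p 0.194) and Hsf4 had 0.55 ± 0.38. Of the 8 TRiC subunits, which fold actin and tubulin, 6 had a log2 fold change above 0, from −0.17 for Cct6a to 0.20 for Cct7, and none of the 8 had an unadjusted p under 0.05. The 7 organelle chaperones had a median of −0.10, and none had an unadjusted p under 0.05. The smallest were those of Hspa9, the mitochondrial Hsp70 (−0.12 ± 0.17), and Dnaja3, its J-domain partner (−0.085 ± 0.14). Hspa5, the chaperone BiP of the endoplasmic reticulum, was at 263, 423 and 637 CPM in Control and 374, 421 and 372 CPM in DKD, with Control replicate 1 lowest and Control replicate 3 highest as for Hspa8 (named after its values were seen).

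Genes outside these lists whose level over the 6 libraries was most like the mean of 8 members, all but Hsf1 and Hspd1 and so with Hspa8 included, were Myom1 (Pearson r 0.935), Jmjd6 (0.925), Kdm5b (0.909), Esco1 (0.907) and Ints12 (0.894), the highest of 11058 genes. This mean, of centred log2 CPM, was 0.97 in Control replicate 2 and −0.65 in Control replicate 1, against −0.16 to −0.017 in the other 4 libraries. Without those 2 libraries r was 0.029, 0.28, 0.65, 0.49 and 0.92 in the same order. It thus fell for all but Ints12, and most for Myom1 and Jmjd6. These values of r rest on the other 4 libraries, whose means lay close together. Jmjd6, an oxygenase of the nucleus, was measured at 31.8, 46.1 and 32.1 CPM in Control and 35.5, 32.1 and 34.5 CPM in DKD. Only 6 libraries stand behind these values, which were picked as the highest of many and are given as a description.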

How the data were processed

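For the 6 libraries the authors deposited 1 table of raw, unnormalized counts by Ensembl gene, with whole numbers and unequal totals. The submitters' processing notes name the build GRCm39 and, as tools, edgeR, StringTie, HISAT2 and fastp. The sources used here do not give versions, annotation release or strand setting. Symbols and exon lengths came from GENCODE M21 on GRCm38, and 55141 of 55401 identifiers matched. Promoter sequences came from RefSeq (GRCm38.p6).

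The edgeR 4.0.16 package (R 4.3.3) was used for the group-wise filterByExpr filter (minimum count 10), TMM scaling and the quasi-likelihood test of DKD against Control over all genes, with Benjamini-Hochberg adjustment and a threshold of 0.05. Each ± beside a log2 fold change is a standard error. Log2 CPM used a prior count of 2. The procedure was tested on simulated data.

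The members and lists were chosen with earlier results of these data known. Named genes are the 10 members, from each list up to 4 called genes, or the 2 of smallest p where none was called, and the 5 genes most like the mean of the 8 members other than Hsf1 and Hspd1. Alternatives were other scalings and filters, DESeq2 1.42.0, limma-voom (limma 3.58.1), a block for the replicate number, robust dispersion, summed Hspa1a and Hspa1b counts, and each library left out. Removing a trend on transcript length was chosen after seeing the data.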

Additional observations from a re-analysis of the deposited data

How the results depend on the processing

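The count of heat-shock members past the threshold was 0 under every alternative run, while at an unadjusted p under 0.05 it was 0 with all libraries, from 0 to 5 with 1 library left out, and 1 with library totals only and with DESeq2. Of the log2 fold changes of members under alternatives, 150 kept their sign and 12 did not. Without Control replicate 2 the sign turned for Hspa1a (0.33), Hspa1b (0.30), Dnajb1 (0.12) and Hsp90aa1 (0.00055). Without Control replicate 3 it turned for Hsp90aa1 (0.13) and Hspa8 (0.43). With 1 library left out, the lowest values of these genes were −1.91 for Hspa1a, −1.77 for Hspa1b, −0.61 for Dnajb1, −0.35 for Hsp90aa1 and −0.31 for Hspa8. Hspa8, at −0.0033 with all libraries, was also above 0 with at least 1 CPM in at least 3 libraries (0.0025), with limma-voom (0.11), with upper quartile factors (0.021), without DKD replicate 2 (0.021) and without DKD replicate 3 (0.039), and with the replicate block (0.11). For Hspa1a the log2 fold change was −0.70 with limma-voom and −0.64 with the block, against −1.46, and DESeq2 gave it no adjusted p.

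The number of other chaperone genes past the threshold, 2, was 4 with at least 1 CPM in at least 3 libraries and with DESeq2 (Hspb6, Hspb8, Bag2 and Hspa12a), and 0 with library totals only, with limma-voom, with no filter and with the replicate block. It ran from 0 to 3 with 1 library left out. With the replicate number as a block 0 genes passed in all, against 228. The numbers are not shown to pair the samples, since deviations of same-numbered libraries correlated at −0.18, 0.066 and −0.22. Over all genes 1, 13, 386, 4, 298 and 10 passed without Control replicates 1 to 3 and DKD replicates 1 to 3. The cause of these changes was not tested. At 3 libraries per group the spread of Hspa1a within Control limits what could be detected.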
